A study of Mus musculus with 6 samples.

Results

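The genes described here are those that ranked high for both H3K27me3 and H3K4me3 in sections of whole mouse embryo at stage E11.5, in mid-gestation. Genes were ranked by their mean reads per spot in each section, and a gene was placed high under a mark when its percentile rank was over 90. Of 17837 genes held by both sections, 764 were high under both marks, 1031 under H3K27me3 only, 996 under H3K4me3 only and 15046 under neither. The 6 sections of the series together held 19378 genes. Because the measured values themselves place a gene in its group, the groups are described and not tested.

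Both embryo sections are labelled wild-type, with no transgene or treatment named, and were 16 µm cryosections. The mouse strain is not named in the labels. Each section was laid on an array of barcoded DNA spots, incubated with an antibody to the mark, and cut by a protein A-Tn5 transposase that moved the array barcode onto the chromatin near the antibody. An E11.5 section stained for H3K27ac, an adult wild-type brain section stained for H3K4me3, and H3K27ac sections of decalcified, paraffin-embedded adult paws were used for comparison. The paws were a control and a collagen-induced arthritis paw, both labelled 42 days. There was 1 section per mark and tissue. No difference between marks therefore has a replicate check, no p-value is given, and all intervals are exact 95% intervals that cover counting error only. Reads from amplified libraries are not independent molecules.

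H3K27me3 is written by the Polycomb repressive complex 2 and is found over developmental genes kept silent. H3K4me3 is written by the Trithorax-related SET1 and MLL complexes and is concentrated at the promoters of active genes. Promoters carrying both marks on the same chromatin are called bivalent. They were described in embryonic stem cells, above all at genes for transcription factors and signalling molecules that are silent but can later be turned on. H3K27ac marks active promoters and enhancers and sits on the same lysine as H3K27me3, so a single histone tail cannot carry both. The marks were read here in different sections and each spot covers many cells. Whether any nucleosome or any cell carried both marks was not measured, and the genes are called high under both marks, not bivalent. Fewer cells carrying a mark and less of it in each cell cannot be told apart either.

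The promoters of 6 genes are given for reference, since H3K4me3 is a promoter mark: Hoxb4, Shox2 and Gsx1, the highest-ranked Hox or developmental transcription factor genes high under both marks with a promoter in the sequence table; Acadm and Aff2, which had the largest rank difference in favour of H3K27me3 and of H3K4me3; and Zfr, high under neither mark and just below the H3K27me3 limit. Each is the 250 bases before the first listed transcription start, from RefSeq on build GRCm38.p6, written 5′ to 3′ on the gene's strand with every CG dinucleotide in capitals. They lie at chr11:96318017-96318266 on the plus strand, chr3:66981772-66982021 on the minus strand, chr5:147188446-147188695 on the plus strand, chr3:153944644-153944893 on the minus strand, chrX:69360081-69360330 on the plus strand and chr15:12117601-12117850 on the plus strand.
Hoxb4: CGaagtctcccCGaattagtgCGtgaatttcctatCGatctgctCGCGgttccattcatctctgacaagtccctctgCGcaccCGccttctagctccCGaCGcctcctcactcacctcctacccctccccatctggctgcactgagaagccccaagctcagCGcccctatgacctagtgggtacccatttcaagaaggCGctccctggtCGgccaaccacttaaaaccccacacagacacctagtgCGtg
Shox2: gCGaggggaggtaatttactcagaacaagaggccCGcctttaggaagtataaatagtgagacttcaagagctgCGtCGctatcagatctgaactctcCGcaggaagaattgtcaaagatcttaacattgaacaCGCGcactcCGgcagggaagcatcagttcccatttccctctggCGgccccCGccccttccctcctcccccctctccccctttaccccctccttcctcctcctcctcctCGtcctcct
Gsx1: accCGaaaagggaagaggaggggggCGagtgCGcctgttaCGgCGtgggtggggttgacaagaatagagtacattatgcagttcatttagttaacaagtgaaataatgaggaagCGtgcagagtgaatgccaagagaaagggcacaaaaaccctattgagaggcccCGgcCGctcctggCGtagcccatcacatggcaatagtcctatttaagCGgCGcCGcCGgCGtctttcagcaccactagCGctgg
Acadm: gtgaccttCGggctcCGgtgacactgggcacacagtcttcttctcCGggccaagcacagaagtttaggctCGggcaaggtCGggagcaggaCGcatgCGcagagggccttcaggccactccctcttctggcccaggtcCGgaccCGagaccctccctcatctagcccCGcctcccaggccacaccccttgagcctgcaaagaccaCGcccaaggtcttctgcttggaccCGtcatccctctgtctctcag
Aff2: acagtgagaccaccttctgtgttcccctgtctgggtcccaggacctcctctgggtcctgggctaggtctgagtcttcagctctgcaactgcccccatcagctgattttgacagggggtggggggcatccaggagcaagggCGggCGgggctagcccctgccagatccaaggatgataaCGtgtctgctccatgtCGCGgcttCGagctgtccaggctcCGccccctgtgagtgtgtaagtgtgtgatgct
Zfr: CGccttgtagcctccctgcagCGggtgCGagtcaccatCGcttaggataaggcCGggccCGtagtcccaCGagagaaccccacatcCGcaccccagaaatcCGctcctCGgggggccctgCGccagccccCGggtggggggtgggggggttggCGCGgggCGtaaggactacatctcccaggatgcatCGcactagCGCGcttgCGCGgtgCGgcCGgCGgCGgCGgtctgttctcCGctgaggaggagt
The CG dinucleotide, which reads the same on both strands, occurred 14 times in the Hoxb4 window, 11 times in that of Shox2, 15 times in that of Gsx1, 12 times in that of Acadm, 7 times in that of Aff2 and 26 times in that of Zfr. Over all 32841 promoters of the table, windows of this length held a median of 6 CGs, and 92.1% held at least 1. The most CG-rich of the 6 windows thus belonged to the gene high under neither mark. The sequence table covered 79.4% of the genes, below the 80% set as the minimum for comparing composition, so no comparison of base composition between the groups is given.

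The H3K27me3 section held 254 spots and 749650 recovered reads, with a median of 2596.5 reads per spot. The H3K4me3 section held 248 spots and 403483 reads, with a median of 1481.5 per spot. The median gene had 14 reads in the H3K27me3 section and 7 in the H3K4me3 section, so most genes are described by few reads. The limit of the top 10% fell at 75 reads under H3K27me3 (interval 59.0 to 94.0) and at 37 reads under H3K4me3 (26.1 to 51.0). Accsl and Cacnb2 (75 reads) lay just inside the H3K27me3 limit and Washc5 and Zfr (74 reads) just outside. Adgrl3 and Agrn (37 reads) lay just inside the H3K4me3 limit and Zfp948 and Zfp957 (36 reads) just outside. Of the 764 genes, 479 had intervals above both limits. The intervals of 546 genes outside the group reached both limits, so the edge of the group is not resolved at this depth. Ranks are of reads per gene and not per length, and no source used here states the window over which reads were assigned to a gene.

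Ties in the deposited signal were ranked by a fixed row order of genes, and the deposited means followed this order: Spearman's rho between a gene's deposited mean and its row was 0.356 under H3K27me3 and 0.348 under H3K4me3, across genes. For reads recovered from the ranks the same rho was -0.079 and -0.059. Ranking the deposited means put 915 genes high under both marks, whose median place was 97.3% of the way down the row order. The 764 genes found from recovered reads had a median place of 42.2%. The groups had 329 genes in common, which is 43.1% of the 764 and 36.0% of the 915. When the deposited means were instead ranked within 100 bins of the row order, 666 genes were high under both marks and 564 of the 764 (73.8%) were among them. All values below rest on recovered reads.

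The labels were checked against known genes. Hox genes, which Polycomb covers in most tissues, had a median percentile rank of 79.0 under H3K27me3, developmental transcription factors 75.1, and cytosolic ribosomal protein genes and housekeeping genes 36.0 each. In the same order the medians were 79.6, 78.3, 42.3 and 55.8 under H3K4me3, and 76.2, 76.2, 40.6 and 37.3 under H3K27ac. The first 2 lists thus ranked above the last 2 in all 3 embryo sections, which is not a check of the H3K27me3 label. Under H3K4me3 the housekeeping genes had a median rank of 55.8 and olfactory receptors, which are silent outside the nose, 15.0. The ribosomal protein genes, active in every cell, had a median H3K4me3 rank of 42.3, about that of germline genes (42.0), and the Hox genes 79.6. Olfactory receptors ranked below housekeeping genes in the H3K27me3 and H3K27ac sections as well (18.9 against 36.0 and 21.6 against 37.3), so that order is not a check of the H3K4me3 label. The H3K4me3 section placed ribosomal protein genes about level with germline genes. Of 13 defining genes of E11.5 tissues, Pax6 was high under both marks and the other 12 under neither. The yolk-sac-type globins Hba-x (6 H3K27me3 and 1 H3K4me3 reads) and Hbb-y (8 and 2 reads) and the heart gene Tnnt2 (12 and 4 reads) lay below the median gene. So did Myh6, Tubb3 and Prrx1. Sox2 (ranks of 83.1 under H3K27me3 and 88.0 under H3K4me3) and Twist1 (79.6 and 78.3) lay above it. Afp and Pecam1 lay above it under H3K4me3 and below it under H3K27me3. Dcx and Cdh5 lay about at the median under H3K27me3 and below it under H3K4me3.

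By construction 10.1% of genes lay in the top 10% under H3K27me3 and 9.87% under H3K4me3, tied genes being kept together, and 4.28% of all genes lay in both. The 764 genes were 42.6% of the H3K27me3 top and 43.4% of the H3K4me3 top. Across all 17837 genes, Spearman's rho between the marks was 0.70. These points share the array chemistry, the gene windows and the mapping, and low-count genes fall on few discrete ranks. The plot of the ranks under both marks shows Hox genes toward the upper right corner and several housekeeping genes above the H3K4me3 line but left of the H3K27me3 line.

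**Figure D1:**
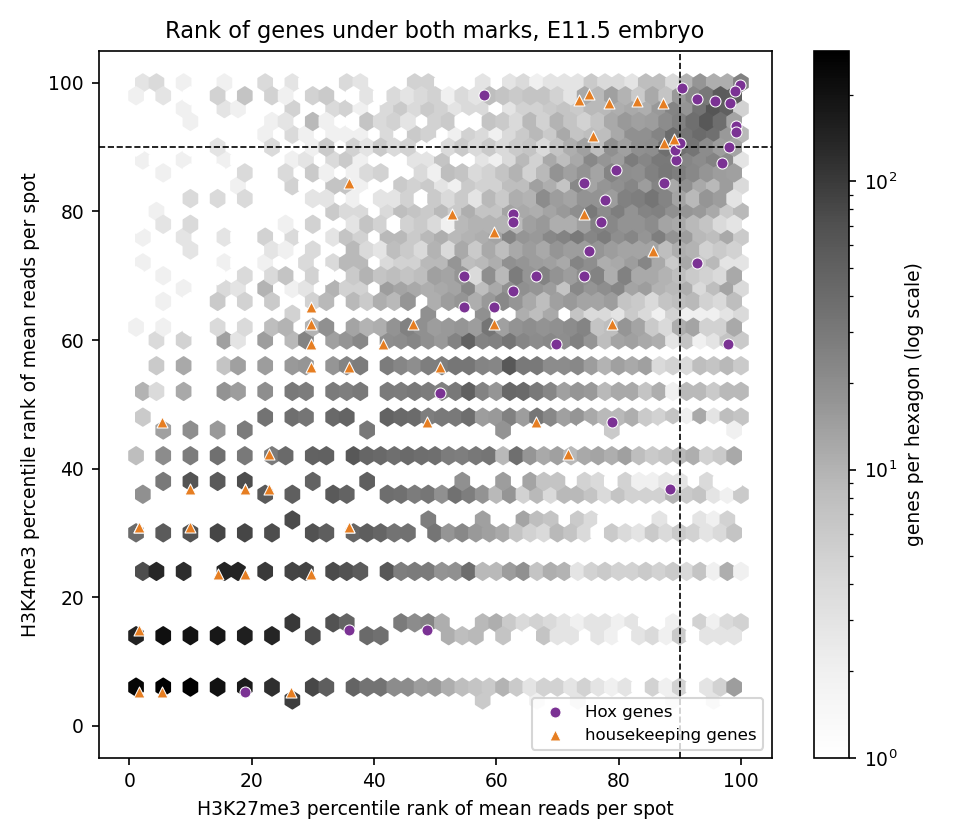
Percentile rank of each gene's mean reads per spot in the E11.5 H3K27me3 section (x axis) against the H3K4me3 section (y axis); hexagon shade gives the number of genes on a log scale, dashed lines the limit of the top 10% under each mark. Of 37 Hox genes (circles) 9 lie in the upper right corner, and of 45 housekeeping genes (triangles) 8 lie above the H3K4me3 limit and none to the right of the H3K27me3 limit.

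In the 764 genes the median was 135 reads under H3K27me3 and 73 under H3K4me3, with ranges of 75 to 4171 and 37 to 3181. In the H3K27ac section, which the grouping did not use, their median was 89 reads. Genes high under H3K27me3 only had a median of 124 H3K27me3, 15 H3K4me3 and 28 H3K27ac reads. Genes high under H3K4me3 only had a median of 34, 61 and 28 reads, and genes under neither 13, 6 and 11 reads. The high sums were spread over the sections. The median gene of the 764 had reads in 38.2% of H3K27me3 spots and 23.4% of H3K4me3 spots, and no gene drew more than 11.0% of its H3K27me3 reads or 15.4% of its H3K4me3 reads from its fullest spot. The 764 genes held 25.4% of H3K27me3 reads (25.3 to 25.5), 28.7% of H3K4me3 reads (28.5 to 28.8) and 21.8% of H3K27ac reads (21.7 to 21.9). In single spots this share ran from 22.2% to 32.1% under H3K27me3, from 23.8% to 34.3% under H3K4me3 and from 17.7% to 26.0% under H3K27ac. The first 2 of these shares follow in part from the choice of the genes by their reads in the same spots.

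The Hox genes encode the transcription factors that set position along the body axis, and were the list with the highest share high under both marks. Of the 37 Hox genes held, 9 (24.3%) were high under both marks, against 4.28% of all genes. A further 4 were high under H3K27me3 only (5.78% of all genes), 1 under H3K4me3 only (5.58% of all genes) and 23 under neither (84.4% of all genes). By cluster, 5 of 10 HoxB genes, 2 of 8 HoxC genes, 1 of 10 HoxA genes and 1 of 9 HoxD genes were high under both. Hoxb4 had 1388 reads under H3K27me3 and 767 under H3K4me3, and 1071 under H3K27ac; all 3 sums are lower bounds, since the highest counts of a spot are not resolved. Hoxb6 had 489 H3K27me3 reads (447 to 534), 223 H3K4me3 reads (195 to 254) and 215 H3K27ac reads. Hoxb5 had 301, 101 and 37 reads in the same order, and Hoxc9 144, 111 and 153. These 4 genes lay clear of both limits.

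Other Hox genes were weighted to 1 of the marks. Hoxa3 had 550 H3K27me3 reads but 50 H3K4me3 reads (37.1 to 65.9), and Hoxc12 538 and 45 reads (32.8 to 60.2). Hoxd3 leaned the other way, with 78 H3K27me3 reads (61.7 to 97.3) and 350 H3K4me3 reads. Hoxb3 had 98 and 120 reads, and Hoxb8, at 75 and 38 reads, lay at both limits. The intervals of Hoxc12, Hoxd3 and Hoxb8 reach a limit, so their place among the 764 is within counting error. The Hox genes high under H3K27me3 only were Hoxc4 (257 H3K27me3 and 10 H3K4me3 reads), Hoxb1 (98 and 15), Hoxb9 (188 and 30) and Hoxd12 (271 and 36). The H3K4me3 intervals of Hoxb9 (20.2 to 42.8) and Hoxd12 (25.2 to 49.8) reach the limit, so their place outside the 764 is within counting error. Hoxc10 alone was high under H3K4me3 only, with 20 H3K27me3 reads and 150 H3K4me3 reads.

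Of 161 other developmental transcription factor genes, 16 (9.94%) were high under both marks, 12 (7.45%) under H3K27me3 only and 18 (11.2%) under H3K4me3 only, against 4.28%, 5.78% and 5.58% of all genes. With deposited means 7 of the 161 were high under both marks, against 915 of all 17837 genes. At the top 5% the counts were 3 and 270, and at the top 20% 46 and 2035. Among the 7012 genes with at least 10 reads in each section they were 3 and 232, but this filter does not keep all of the 161, so no share is given. With deposited means the share of the list was below that of all genes, and at the top 5% near it. Shox2, a homeobox gene of limb and heart development, led the 16 with 325 H3K27me3 reads (291 to 362), 282 H3K4me3 reads (250 to 317) and 385 H3K27ac reads. Next came Dlx6, a distal-less homeobox gene (143, 94 and 91 reads), Irx6, an Iroquois homeobox gene (143, 92 and 201), and Gsx1, a homeobox gene of the ventral forebrain and spinal cord (135, 62 and 81). These had similar ranks under both marks, from 94.8 to 99.1. Gata4 (222 H3K27me3 and 61 H3K4me3 reads), Gata2 (396 and 51), Pax6 (265 and 50), Nkx6-1 (195 and 49) and the muscle regulator Myf6 (249 and 49) ranked higher under H3K27me3. Pax2, Tbx4, Otx2, Tfap2a, Sox1 and Foxl2 were also among the 16, with 82 to 176 H3K27me3 reads and 37 to 59 H3K4me3 reads. The intervals of Myf6, Nkx6-1, Tbx4, Otx2, Tfap2a, Sox1 and Foxl2 reach a limit, so their place in the group is within counting error. The H3K27ac reads of the 16 ran from 24 for Myf6 to at least 1118 for Tfap2a.

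**Figure D2:**
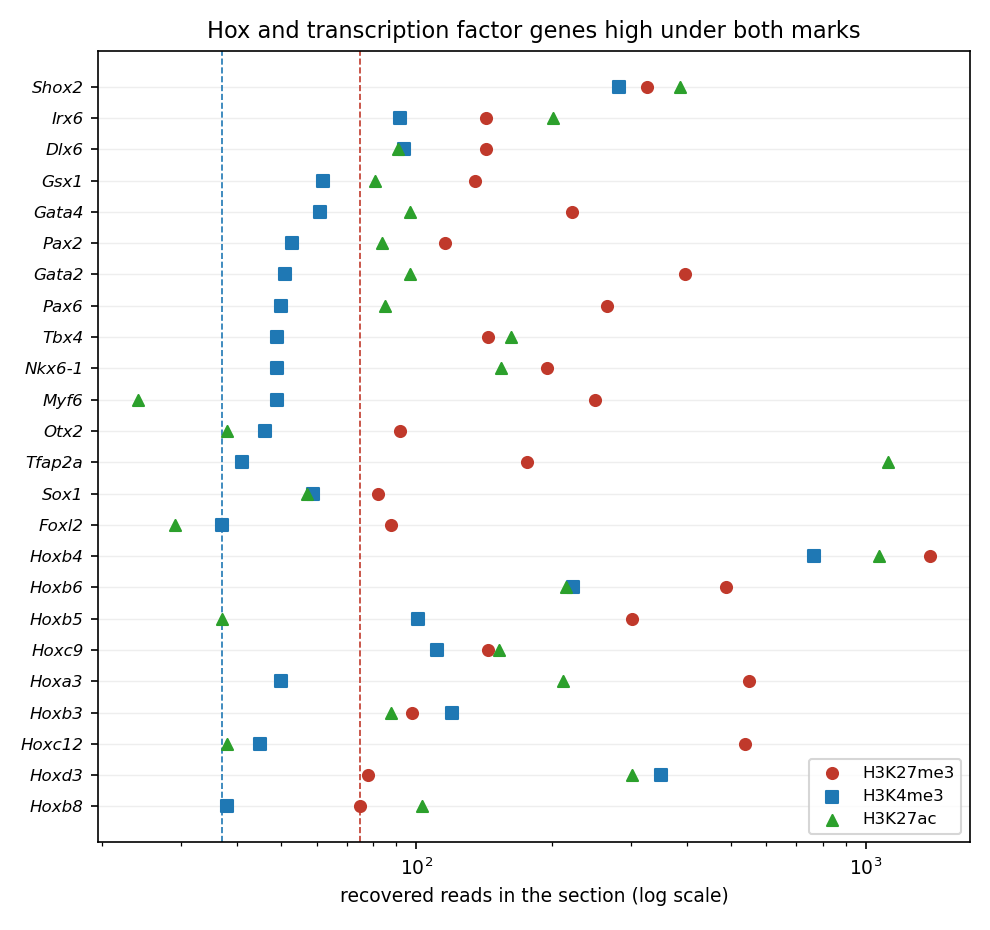
Recovered reads (x axis, log scale) in the E11.5 H3K27me3 (circles), H3K4me3 (squares) and H3K27ac (triangles) sections for developmental transcription factor genes (upper block) and the 9 Hox genes (lower block) high under both marks, less any not reported here; dashed lines mark the limits of 75 H3K27me3 and 37 H3K4me3 reads. Most genes have their H3K4me3 square close to its limit and their H3K27me3 circle well to the right of its own, while Hoxd3 has more H3K4me3 than H3K27me3 reads.

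Transcription factor genes high under 1 mark could have few reads under the other. Olig2, of the motor neuron and oligodendrocyte lineage, had 158 H3K27me3 reads and 16 H3K4me3 reads, and Nkx1-2 106 and 14. Lhx1, of kidney and head organiser, had 5 H3K27me3 reads, 154 H3K4me3 reads and 5 H3K27ac reads. Evx2, next to the HoxD cluster, had 15, 196 and 10 reads, and Meox2, a somite homeobox gene, 11, 46 and 14. The myogenic factor Myod1 had 44 H3K27me3, 423 H3K4me3 and 15 H3K27ac reads. Of these, Lhx1 lay below the median gene in H3K27ac (13 reads), and Evx2 and Myod1 lay near it.

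Among 67 signalling ligands and their antagonists, 4 (5.97%) were high under both marks, 7 (10.4%) under H3K27me3 only and 7 (10.4%) under H3K4me3 only, against 4.28%, 5.78% and 5.58% of all genes. The 4 were Shh, the Sonic hedgehog ligand (135 H3K27me3, 105 H3K4me3 and 124 H3K27ac reads), Wnt11 (128, 355 and 98), Wnt10a (93, 71 and 66) and Wnt7b (86, 49 and 59). The largest differences in favour of H3K27me3 were in Wnt16 (246 against 2 H3K4me3 reads) and Fst, the activin antagonist follistatin (476 against 8). Those in favour of H3K4me3 included the Notch ligand Dll1 (83 against 23 H3K27me3 reads) and the neurotrophic factor Gdnf (283 against 38). Of 45 subunits of Polycomb and Trithorax complexes themselves, 2 (4.44%, near the 4.28% of all genes) were high under both: the H3K4 methyltransferase gene Setd1b (248 and 212 reads) and Phc2, a Polycomb repressive complex 1 subunit (109 and 58). Bmi1, also of that complex, had 245 H3K27me3 reads and 18 H3K4me3 reads. Pcgf3 (19 and 127) and Cbx2 (28 and 68) had more H3K4me3.

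The lists of basic cell function had no member among the 764. None of 45 housekeeping genes and none of 72 ribosomal protein genes was high under both marks, against 4.28% of all genes. Members of a list are not independent, so these counts of 0 are not read as a share below that of all genes. Other settings placed up to 4 genes of each list in the group, both at the top 20%. The housekeeping genes held 8 members (17.8%) high under H3K4me3 only and none under H3K27me3 only, against 5.58% and 5.78% of all genes. The H3K4me3-only count moved to 5 under 6 of 14 alternatives, among them deposited means and both rankings within bins of the row order. The H3K27me3-only count became 1 under 2 alternatives. Among the 8 were the glycolytic genes Gapdh (33 H3K27me3 and 116 H3K4me3 reads), Eno1 and Aldoa, the replication helicase gene Mcm2 (35 and 165), Psmb1, Tbp and Hnrnpa1. Psmb1 and Tbp had the same 101 H3K4me3 reads, in the same 32.3% share of spots, and the same 125 H3K27ac reads. They may share reads and are not independent members, though both are included in the counts given here. Of the 45, 34 ranked higher under H3K4me3 than under H3K27me3, against 51.0% of all genes, and the median difference in percentile rank, H3K27me3 minus H3K4me3, was -14.1 against -0.42 for all genes. In the ribosomal list 5 of 72 (6.94%) were high under H3K4me3 only, among them Rpl22 (7 and 105 reads) and Rplp0 (24 and 97), and 2 under H3K27me3 only, Rpl29 (217 and 18) and Rpl21 (214 and 27). Ribosomal protein genes have many processed pseudogenes, and no source used here states how reads in such copies were assigned.

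Of 48 neuronal genes, 3 (6.25%) were high under both marks, 5 (10.4%) under H3K27me3 only and 1 (2.08%) under H3K4me3 only, against 4.28%, 5.78% and 5.58% of all genes; the share under both is near that of all genes. The 3 were Rbfox3 (88 H3K27me3 and 51 H3K4me3 reads), Gad1 (87 and 77), which makes the transmitter GABA, and the synaptotagmin gene Syt1 (85 and 44). Elavl3 (118 and 13), L1cam (82 and 18) and Chat (75 and 19) led those high under H3K27me3 only. Of 35 liver and red blood cell genes, Prox1 (140, 220 and 98 H3K27ac reads) and the adult alpha-globin copies Hba-a1 (359, 47 and 26) and Hba-a2 (360, 51 and 27) were high under both (8.57%, against 4.28% of all genes). The globin copies are nearly identical, so reads may be split between them and their values are uncertain. The band 3 gene Slc4a1 had 301 H3K27me3 and 14 H3K4me3 reads. None of 32 heart and somite muscle genes was high under both, and 4 (12.5%, against 5.58% of all genes) were under H3K4me3 only: Tbx5, Myod1, Myl4 and Myl7.

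The germline, olfactory receptor, histone and zinc finger lists had shares high under both marks that were near or below that of all genes (4.28%). None of 34 germline genes and none of 212 olfactory receptors was high under both marks. These counts were not tested against the share of all genes, since members of a list are not independent. Tex101 (88 and 23 reads) was the germline gene high under H3K27me3 only (2.94%, against 5.78% of all genes). Of the olfactory receptors 6 (2.83%, against 5.78% of all genes) were high under H3K27me3 only, led by Olfr374 (791 and 4). A further 2 (0.94%, against 5.58%) were high under H3K4me3 only, with Olfr1362 at 4 and at least 1685 reads. Of 34 replication-dependent histone genes, H2ac23 (119 and 129) was high under both (2.94%, against 4.28% of all genes), a share that rests on 1 gene. Histone genes are near-identical copies and their values are uncertain. Of 362 Zfp zinc finger genes, 15 (4.14%) were high under both, close to the share of all genes, led by Zfp644 (1841 and 794, both lower bounds), Zfp703 (139 and 83) and Zfp516 (304 and 67). The lists were chosen with earlier results of these data known, and the counts describe these sections.

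**Figure D3:**
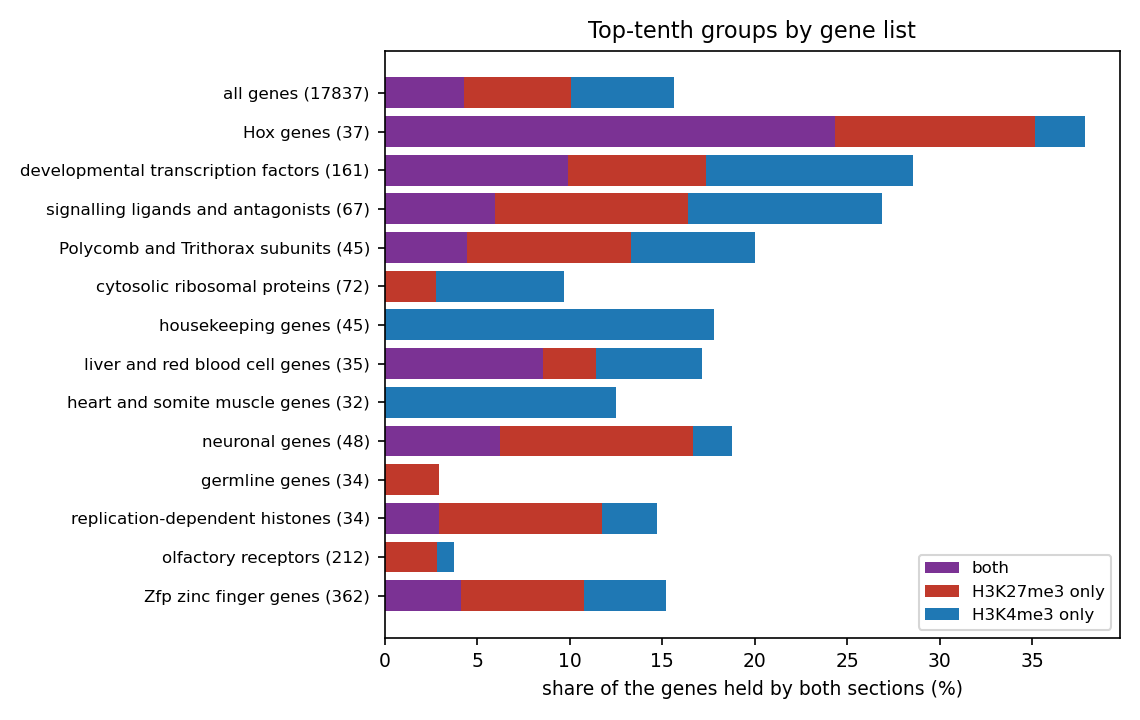
Share of each gene list (y axis, number of genes held in parentheses) high under both marks, under H3K27me3 only and under H3K4me3 only, as stacked bars in percent; the top bar gives all 17837 genes. Hox genes have the widest bar for both marks (24.3%), and housekeeping genes and heart and somite muscle genes have members high under H3K4me3 only.

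The genes with the highest ranks under both marks were mostly outside the developmental lists. Ordered by the lower of the 2 ranks, the first 12 were Larp4, Dram2, Cbr3, Gm14569, Cox6b1, Slco2b1, Tpm4, Dnajc21, Adap1, Zfp644, Hoxb4 and U2surp. Larp4, a gene for an RNA-binding protein, had 4171 H3K27me3, 3181 H3K4me3 and 3248 H3K27ac reads. Dram2 had 3957, 3134 and 3031 reads, and Cox6b1, a respiratory chain subunit, 3476, 2111 and 2566. All sums of these 12 genes, H3K27ac included, are lower bounds, and the H3K27ac sums were also high, from 947 reads for Adap1 to 3248 for Larp4. These genes had reads in 94.9% to 100% of H3K27me3 spots. Hoxb4 was the only Hox gene among the 12.

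Among genes with exact sums and reads in at least 25% of spots in both sections (317 of the 764), the order began with Ccnd2, the cyclin D2 gene (894 H3K27me3, 574 H3K4me3 and 75 H3K27ac reads), Crebzf (839, 472 and 583) and Cd63, a tetraspanin of endosomes (788, 439 and 720). Gm10406, Inpp1, Cdh17, Tsnax, Snrpn, Dlk1, Dap3, Cux2 and Atp8b3 followed. Snrpn (689, 257 and 359) and Dlk1 (582, 252 and 1950) are imprinted genes, which are expressed from a single parental allele. Ccnd2, Inpp1 (627, 596 and 21) and Dap3 (428, 287 and 19) had fewer H3K27ac reads than the others, whereas Dlk1 had more H3K27ac than H3K27me3 reads, its H3K27ac sum being a lower bound.

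Genes high under 1 mark could have almost no reads under the other. Acadm, a mitochondrial fatty acid oxidation gene, had 962 H3K27me3 reads (902 to 1025) in 93.3% of spots, 1 H3K4me3 read (0.025 to 5.57) and 4 H3K27ac reads. Dgkb (607), Rhpn2 (489), Lrrc47 (488), Awat1 (475), A2ml1 (440), Cfap45 (396) and Ap5s1 (375) also had 1 H3K4me3 read each. In the other direction Aff2 had 1 H3K27me3 read, 422 H3K4me3 reads in 73.0% of spots and 3 H3K27ac reads, and Gm9573 (323), Ifi202b (250) and H2-M10.3 (218) had 1 H3K27me3 read each. Tax1bp1, Rcn2, Capza3 and Exph5 had 2 or 3. By rank alone, H3K27me3-only genes were led by Fam207a (2872 and 12 reads), Septin2 (2845 and 14), Pold2 (2813 and 5) and Eif2s1 (2585 and 7), and H3K4me3-only genes by Fam126a (50 and 2795), Cd1d1 (14 and 2675), Anks4b (59 and 2666) and Zc3h13 (67 and 2286); the high sums of these 8 genes are lower bounds. Pold2 and Eif2s1, needed for DNA replication and translation in every dividing cell, were thus among the genes with most H3K27me3 reads.

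The 764 genes also ranked high in sections the grouping did not use. In the E11.5 H3K27ac section 574 of the 764 (75.1%) were in the top 10%, against 9.89% of all genes, 19.0% of genes high under H3K27me3 only, 17.5% of those high under H3K4me3 only and 5.37% of those under neither. Of the other 190 genes, 116 ranked between the top 10% and the top 20%, and 8 were below the median. In the adult brain H3K4me3 section 530 of the 663 genes held (79.9%) were in the top 10%, against 10.0% of all genes, and in the control paw H3K27ac section 582 of 764 (76.2%), against 10.0%. In the arthritis paw H3K27ac section the count was 447 of 673 (66.4%), against 9.99%. Genes high under H3K27me3 only and under H3K4me3 only had similar shares in the brain H3K4me3 section, 20.7% and 17.6%. Of the 652 genes held by all 6 sections, 366 (56.1%) were in the top 10% of all 4 other sections and 62 (9.51%) of none. For genes high under H3K27me3 only these shares were 3.46% and 55.3%.

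**Figure D4:**
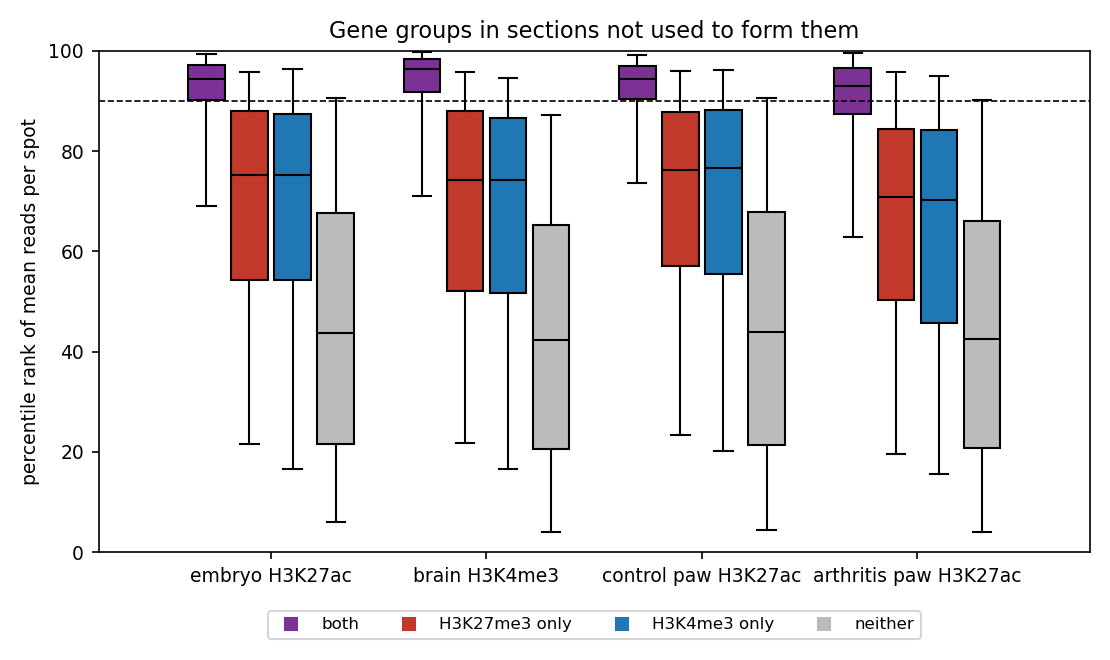
Percentile rank of mean reads per spot (y axis) of the genes high under both marks, under H3K27me3 only, under H3K4me3 only and under neither, in 4 sections that did not enter the grouping; boxes span the quartiles with the median as a line, whiskers the 5th to 95th percentile of genes, and the dashed line the top 10%. Genes high under both marks have medians of 94.4, 96.4, 94.4 and 92.9 from left to right, above those of all other groups.

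Many developmental genes of the group also ranked high in other sections. Of the 16 transcription factor genes high under both marks, 12 were in the top 10% of embryo H3K27ac, 13 in that of brain H3K4me3, 12 in that of control paw H3K27ac and 9 in that of arthritis paw H3K27ac. For all genes high under both marks the shares in these sections were 75.1%, 79.9%, 76.2% and 66.4%. The high ranks were thus not particular to the developmental genes. Of the 9 Hox genes, 7 were in the embryo H3K27ac top 10% and 6 in that of the control paw. Brain H3K4me3 held 6 of the 9 and had 5 in its top 10%. The arthritis paw section also held 6 and had 2 in its top 10%. The genes that did not rank high in H3K27ac were Hoxb5 and Hoxc12 (37 and 38 reads), and Myf6, Foxl2, Otx2 and Sox1 (24, 29, 38 and 57 reads).

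The overlap was set beside that of every other pair of sections, over the 9471 genes held by all 6. The embryo H3K27me3 and H3K4me3 sections shared 39.5% of their top 10%, the 13th highest of 15 pairs. The other 14 pairs shared 38.7% to 54.0% with a median of 41.5%. Their rho of 0.59 was the lowest of the 15, and the others ran from 0.60 to 0.73. Sharing of high genes was therefore not particular to this pair of marks. Against this, 2 sets of spots from the same section shared far more. Over the 17559 genes held by all 3 embryo sections, alternate array columns of a section had 84.2% to 87.9% of their top 10% in common. On the same genes, columns of the H3K27me3 and H3K4me3 sections shared 42.0% to 43.3%. Columns of the other pairs of embryo sections shared 41.1% to 43.7%.

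**Figure D5:**
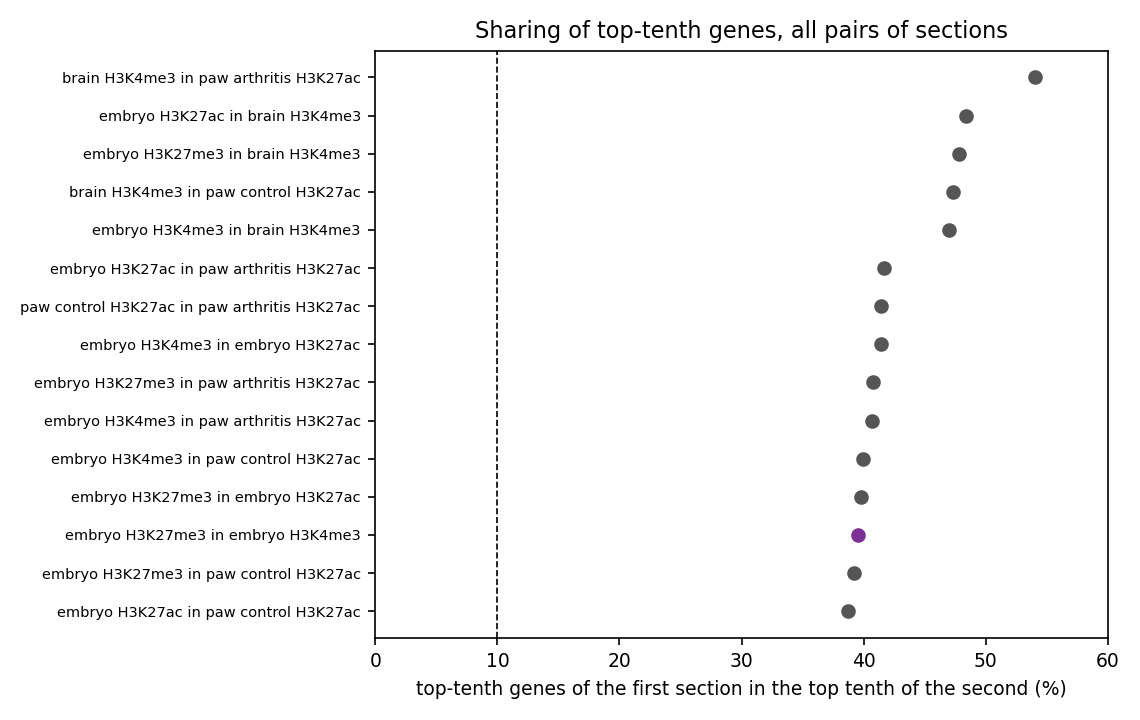
Share of the top 10% genes of the first section that are also in the top 10% of the second (x axis, percent), for all 15 pairs of the 6 sections over 9471 genes; the dashed line marks 10%. The pair of embryo H3K27me3 and H3K4me3 (purple) lies at 39.5%, inside the range of the other 14 pairs, 38.7% to 54.0%.

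When the 17559 genes held by all 3 embryo sections were ranked for all 3 marks, 570 (3.25%) were in the top 10% of all 3. Exactly H3K27me3 and H3K4me3 marked 188 genes (1.07%), exactly H3K27me3 and H3K27ac 186 (1.06%) and exactly H3K4me3 and H3K27ac 178 (1.01%). The 3 pairs thus held similar numbers of genes. The 188 genes included the Hox genes Hoxb5 and Hoxc12 (5.41% of 37) and the transcription factor genes Foxl2, Myf6, Otx2 and Sox1 (2.48% of 161), against 1.07% of all genes. The 186 included Hoxd12, Zic1, Zic4, Nog and Wnt2, and the 178 Hoxb8, which passed the H3K4me3 limit but not the H3K27me3 limit in this gene set, Nkx2-2, Nkx3-2 and Wnt10b. The 186 held 2.70% of Hox, 1.86% of transcription factor and 2.99% of signalling genes, against 1.06% of all genes. For the 178 these shares were 2.70%, 1.24% and 1.49%, against 1.01%. The 570 included 6 Hox genes (16.2% of 37) and 12 transcription factor genes (7.45% of 161), against 3.25% of all genes. They also included all 4 signalling genes that were high under both marks (5.97% of 67).

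A subset of the 764 ranked lower in H3K27ac. Outside the top 20% of H3K27ac lay 74 of the 764, and the 10 of these with the highest ranks were named after their values were seen: Carf, Wdr12, Inpp1, Dap3, Dtd2, Npnt, P4ha2, Tex19.1, Dact3 and Anks6. Dact3, an inhibitor of Wnt signalling, had 262 H3K27me3, at least 2235 H3K4me3 and 9 H3K27ac reads. P4ha2, a collagen prolyl hydroxylase gene, had 280, 275 and 11, and Tex19.1, a germline gene that the germline list did not hold, had 266, 352 and 18. Carf (1798, 643 and 16) and Wdr12 (1766, 634 and 11) are neighbours with nearly the same reads and are not independent, though both are counted. Their H3K27me3 sums are lower bounds. Of the 764 genes, 31 (4.06%) had reads within 5% of those of a neighbouring gene in both sections, and 0.53% of all genes did. A gene was counted only with at least 20 reads in each section. All 764 genes met this, with at least 75 H3K27me3 and 37 H3K4me3 reads. The upper quartile of all genes was 17 H3K4me3 reads, so most genes could not be counted. The shares therefore cannot show whether such sharing was more common among the 764.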

How the data were processed

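Spatial chromatin profiles of 6 mouse tissue sections were analysed, 1 per group. Of tools, the submitters' processing notes list MACS2, featureCounts and Bowtie2, and of builds mm9 and hg19, without roles or versions. What the authors deposited is a quantile-normalised signal per gene and spot, in which each spot takes the same list of values times 1 factor. Values tied in reads had been ranked in the gene order of the control paw. Reads were recovered from this order: within a spot each fall in row order marks 1 further read. Reads are not resolved beyond a count held by fewer than 5 genes, and a gene with over 10% of its reads there is a lower bound (74 genes under H3K27me3, 66 under H3K4me3). Recovery gave 94.8% and 94.6% of the total of the deposited list. In 9 H3K27me3 spots and 23 H3K4me3 spots single reads were in part at 0.

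The percentile rank is 100 × (rank − 0.5) / number of genes, ties sharing their mean rank. Group members, gene lists and comparisons were chosen with earlier results of these data known. Named genes are the 12 highest by the lower rank, the 12 highest with exact sums and reads in 25% of spots, 8 by rank difference and 4 by rank under each mark, list members up to 4 and 3 per group, with more where a list turned on them, and genes at the limits; a few genes that the rule names are not reported here. Deposited names were matched to RefSeq symbols (17738) or synonyms (70); 29 kept the deposited name. Intervals are exact Poisson for reads and exact binomial for shares of reads, at 95%. In the comparison of settings, a main share of genes had an exact binomial interval over genes, which are not independent. Python 3.11.15, numpy 2.4.6, pandas 2.3.3 and scipy 1.17.1 were used, and the recovery was tested on simulated data. Alternatives replaced the values, spots, limits or genes.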

Additional observations from a re-analysis of the deposited data

How the results depend on the processing

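No paired analysis was possible because each mark has 1 section. Under 14 alternatives to 13 values, 131 of 180 stayed and 49 moved. Staying meant within 1.5 times the main count, 0.1 of the main rho or the interval of the main share. A change of direction was defined for rho only, and rho stayed positive. The group of 764 genes became 270 at the top 5%, 2035 at the top 20% and 232 among genes with at least 10 reads in each section; the latter setting ranks fewer genes. Spearman's rho between marks became 0.56 without the 5% of spots with most reads of each gene and 0.43 among genes with at least 10 reads. The share of the group in the H3K27ac top became 86.0% with deposited means and 80% at the top 20%. Of 37 Hox genes, 4 were high under both with deposited means (915 of all 17837 genes), 4 at the top 5% (270) and 14 at the top 20% (2035). Among genes with at least 10 reads in each section the Hox count was 4 (232 of 7012 genes). This filter may keep fewer than the 37 Hox genes, so no share is given. The cause of these shifts was not tested. The remaining alternatives, including 1 chosen after seeing the data that left out spots in which single reads were in part at 0, gave 748 to 773 genes (666 and 750 when ranked within bins of the row order). Neuronal genes high under H3K27me3 only moved most often, from 5 to between 0 and 9. Base composition was not run under any alternative. Depth limits the edge of the group: at 37 H3K4me3 reads the interval spans 26.1 to 51.0.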
